A study of Mus musculus with 12 samples.

Results

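The p200 or PYHIN genes of the mouse form a cluster on chromosome 1 and encode proteins that bind DNA through HIN-200 domains, most of them joined to a pyrin domain. The 10 members described here were the rows of the deposited tables with the symbols Aim2, Ifi202b, Ifi203, Ifi204, Ifi205, Mnda, Mndal, Pydc3, Pydc4 and Pyhin1, which is 10 of the 21851 genes kept in each table. They were measured by RNA sequencing in cells washed from the peritoneal cavity of mice labelled C57BL/6J. There were 12 libraries in 4 groups of 3: wild-type mice injected with PBS, wild-type mice injected with LPS (bacterial lipopolysaccharide), lactoferrin knockout mice injected with PBS and lactoferrin knockout mice injected with LPS, all by the intraperitoneal route. The series asks how loss of lactoferrin, the iron-binding protein encoded by Ltf, bears on the response to LPS. The sources used here give no age or sex of the mice, LPS dose, time before lavage or account of how the knockout was made. Titles of the knockout libraries name wild-type mice, but their descriptions and characteristics give the knockout and were followed. The labels do not say that each library came from a separate mouse, so the p-values measure the spread between libraries, which may be partly technical.

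Proteins of the family are known as sensors and regulators of DNA in the cytosol and nucleus and as products of interferon signalling. AIM2 binds double-stranded DNA in the cytosol and recruits the adaptor ASC (Pycard) and caspase-1 into an inflammasome that matures IL-1β and IL-18. The p204 protein of Ifi204, often set beside human IFI16, has been linked to DNA sensing through STING, and the p202 protein of Ifi202b has HIN domains but no pyrin domain and is known to restrain AIM2. In mice, Ifi202b is also known for a large difference between inbred strains, being low in C57BL/6 mice and abundant in strains such as NZB. Macrophages are among the cells in which interferons and bacterial products are known to induce the family.

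In GRCm38 the 10 genes lay within 680.9 kb, chr1:173350879-174031810, 7 on the minus strand and 3 on the plus strand, with Aim2 at one end and Ifi205 at the other. The current reference symbols are Ifi213 for Pydc4, Ifi209 for Pyhin1, Ifi208 for Pydc3 and Ifi211 for Mnda. RefSeq promoter windows on GRCm38.p6, from 250 bases before to 50 bases after a transcript start, were found for 9 members, all but Ifi204. The core of an interferon-stimulated response element, GAAA followed after any 2 bases by GAAA, was searched on both strands and was present in the windows of 6 of these 9 members, against 3.99% of 27025 genes with a window and 4.17% of the 8014 tested genes with one. The stretches before the start are shown for the 5 members in which they held the element outside annotated exons, 5′ to 3′ on the gene's strand, with the element in capitals. Annotated exon was left out, so the stretch of Ifi205 ends 55 bases short of the RefSeq start and that of Pydc4 ends 2 bases short. They are shown to be read beside the calls with LPS in wild type. Of the 5, 4 were called higher, against 24.8% of tested genes, and 1, Pydc3, was not. Mndal, which held the element within annotated exon, was not called, and Pyhin1, without a match, was called higher. Whether the element bears on these calls was not tested.
Ifi205 (chr1:174031811-174031909, minus strand): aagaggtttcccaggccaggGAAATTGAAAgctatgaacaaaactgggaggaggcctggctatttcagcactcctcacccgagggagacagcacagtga
Mnda (chr1:173913047-173913146, minus strand): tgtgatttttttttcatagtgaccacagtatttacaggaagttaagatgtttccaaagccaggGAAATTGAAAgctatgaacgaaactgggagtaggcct
Ifi203 (chr1:173942493-173942592, minus strand): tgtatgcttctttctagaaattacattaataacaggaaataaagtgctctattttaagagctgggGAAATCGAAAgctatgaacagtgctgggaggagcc
Pydc4 (chr1:173599275-173599372, minus strand): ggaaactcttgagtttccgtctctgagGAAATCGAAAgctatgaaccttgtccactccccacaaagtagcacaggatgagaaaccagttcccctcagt
Pydc3 (chr1:173673565-173673664, plus strand): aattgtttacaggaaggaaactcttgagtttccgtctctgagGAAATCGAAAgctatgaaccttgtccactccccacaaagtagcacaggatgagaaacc

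The element began 134 bases before the start in Ifi205, 73 in Pydc4, 58 in Pydc3, 37 in Mnda and 35 in Ifi203, and the window of Mndal also held it, 36 bases before its start. Ifi205 held a further match 23 bases after its start, and a further window of Mndal held a match on the opposite strand. A further window of Ifi203 held none. The stretches shown for Pydc3 and Pydc4 are the same over most of their length, so the matches of the members are not independent of each other. The form GAAATTGAAA was found in Ifi205 and Mnda, and GAAATCGAAA in Ifi203, Mndal, Pydc3 and Pydc4. No match was present in the windows of Aim2, Ifi202b and Pyhin1. Among the other motifs searched on both strands, the palindrome TTCNNNGAA of a gamma-activated site was found in Ifi202b alone, 148 bases before its start, against 9.55% of genes. The PU.1 and ETS core GAGGAAGT was found in Aim2 alone, 113 bases before its start, against 3.69% of genes. Neither of 2 full forms of the κB site was found in the 9 members, against 0.107% and 0.174% of genes. These matches are of letters only and were not tested for binding.

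Most members share stretches of sequence with other family genes, to different degrees, which limits how far the levels of those members can be told apart. The share of distinct 50-base words of a member's coding transcripts that recurred in another family gene was 72.8% in Mnda and 49.6% in Ifi205, mostly with each other. It was 29.7% in Ifi204, 29.4% in Mndal, 29.3% in Pyhin1, 25.9% in Pydc3, 15.1% in Pydc4 and 5.24% in Ifi203. Ifi202b and Aim2 shared none. The words that Pyhin1 shared all lay in Ifi214, for which no row was used here. In GENCODE the gene Mndal overlaps Mnda and Ifi203, and all of them lie on the minus strand. Counting by strand would therefore not separate them, and reads of these genes may be split or pooled.

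Values are in FPKM, fragments relative to transcript length and to library size, which carry no read totals, so the depth behind a level is not known. Libraries summed to between 343873.6 and 388129.0 FPKM with 13921 to 14574 genes above 0. Ltf, the targeted gene, was at 1.89, 1.23 and 1.16 FPKM in the wild-type PBS libraries, at 0.176, 1.33 and 0.275 FPKM in the wild-type LPS libraries, at 0.183 to 0.258 FPKM in the knockout PBS libraries and at 0.0699 to 0.117 FPKM in the knockout LPS libraries. Within each treatment the knockout libraries were all below the wild-type libraries. Macrophage markers were high in every library, with Lyz2 at 4919 FPKM or more and Adgre1, which encodes F4/80, at 113 FPKM at the lowest. Wild-type PBS replicate 3 stood apart in its group in the sum of 11 macrophage markers, 23860 FPKM against 10330 and 10630 FPKM. Most of that sum was Lyz2, at 19210 FPKM against 7564 and 8037 FPKM. Adgre1 differed less, at 491 FPKM against 256 and 306 FPKM. The same library was the lowest of its group in 7 of the 10 members, where 40.7% of all tested genes were lowest in it. Knockout PBS replicates 2 and 3 and knockout LPS replicate 3 stood apart in Ifi202b and Pydc3, as described below.

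Together the 10 members summed to 167 ± 68.8 FPKM in wild type under PBS, 465 ± 47.4 in wild type under LPS, 223 ± 81.3 in the knockout under PBS and 552 ± 63.1 in the knockout under LPS (SD, n = 3 each). Pyhin1 had the highest mean level in wild type under PBS, and Ifi204 in the other 3 groups. Aim2, Pydc3 and Pydc4 were the 3 lowest in every group, with Pydc4 the lowest in wild type under PBS, Aim2 in wild type under LPS and Pydc3 in both knockout groups. Spread within a group was wide under PBS, where the members' libraries differed by 1.21 times (Aim2) to 27.4 times (Mndal) in wild type, and narrow under LPS in wild type, where they differed by 1.02 times (Aim2) to 1.51 times (Pydc3). The plot of member levels shows every value.

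**Figure D1:**
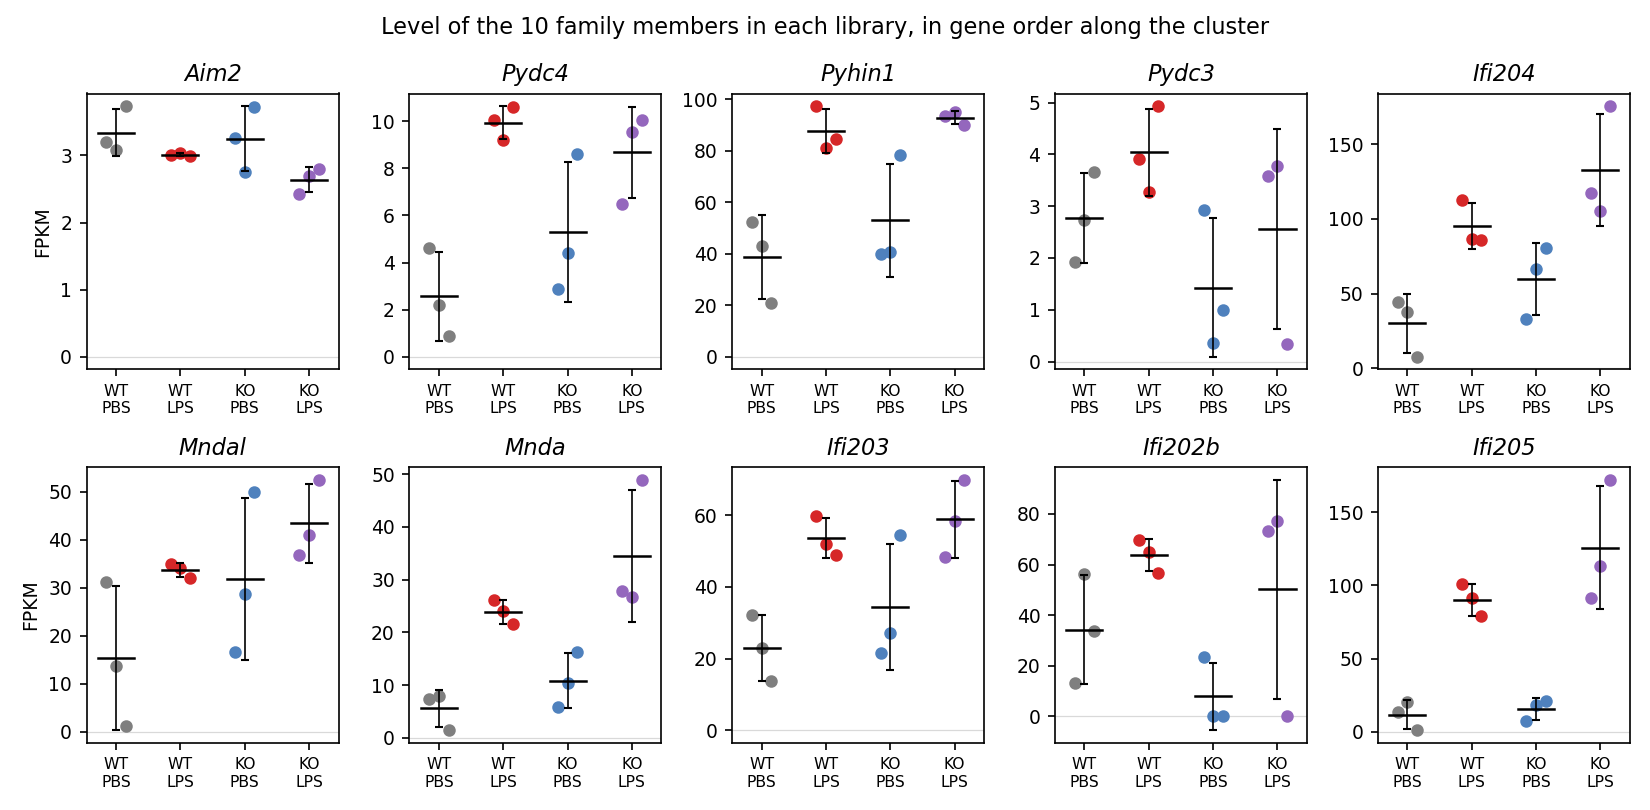
Level of each of the 10 members in FPKM (linear axis, a scale of its own for each gene) in the 4 groups, in gene order from Aim2 to Ifi205; points are libraries, bars the mean, whiskers the SD (n = 3). Ifi205 and Mnda sit higher in every LPS library than in any PBS library of the same genotype, Aim2 stays between 2.43 and 3.74 FPKM, and Ifi202b has 3 knockout libraries near 0.

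The first comparison asked which members respond to LPS in wild-type cells. Ifi205 and Mnda, a pair with long shared stretches, moved most. Ifi205 was at 13.8, 20.3 and 1.08 FPKM under PBS and at 101, 91.2 and 78.9 FPKM under LPS. Every LPS library was well above every PBS library, and PBS replicate 3 was far below the other PBS libraries. The difference was 3.39 ± 0.69 on the log2(FPKM + 1) scale (SE), with an adjusted p of 0.00139 by limma over all 9841 genes tested. Mnda was at 7.43, 7.83 and 1.43 FPKM under PBS and at 26.2, 24.0 and 21.5 FPKM under LPS, again without overlap, a difference of 2.13 ± 0.46 (SE, limma adjusted p = 0.00202).

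Ifi204, the DNA sensor set beside human IFI16, reached the highest LPS level of the family. It was at 44.6, 37.8 and 7.78 FPKM under PBS and at 113, 86.4 and 86.1 FPKM under LPS, so the groups did not overlap and the lowest PBS library was again replicate 3. It rose by a log2 difference of 1.93 ± 0.53 (SE, limma adjusted p = 0.00791). Pydc4 was at 4.62, 2.20 and 0.870 FPKM under PBS and at 10.0, 9.18 and 10.6 FPKM under LPS, a difference of 1.76 ± 0.38 (SE, limma adjusted p = 0.00182). It was a gene of low level whose LPS libraries lay close together and above all PBS libraries.

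Pyhin1 and Ifi203, already abundant under PBS, rose by similar amounts. Pyhin1 was at 52.3, 43.1 and 20.7 FPKM under PBS and at 97.4, 81.1 and 84.5 FPKM under LPS, a log2 difference of 1.25 ± 0.31 (SE, limma adjusted p = 0.00454). Ifi203 was at 32.0, 23.1 and 13.6 FPKM under PBS and at 59.7, 52.1 and 49.0 FPKM under LPS, a difference of 1.26 ± 0.33 (SE, limma adjusted p = 0.00622). In neither gene did the groups overlap.

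The other 4 members did not pass the threshold in wild type. Mndal was at 31.1, 13.7 and 1.14 FPKM under PBS and at 35, 34.0 and 32.0 FPKM under LPS. All LPS libraries were above all PBS libraries, but PBS replicate 1 lay just below them, and the log2 difference of 1.79 ± 0.74 (SE) had a limma adjusted p of 0.0543. Its range under PBS on the log2(FPKM + 1) scale, 3.91, was exceeded by 0 of the 9768 genes with a range in that group. Without PBS replicate 3 the difference was 0.67 (limma adjusted p = 0.165). Scaling by median of ratios (limma adjusted p = 0.0393) or by the upper quartile (0.0425), and leaving out PBS replicate 1 (0.0054), put Mndal past the threshold.

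Ifi202b was at 13, 56.1 and 33.8 FPKM under PBS and at 69.5, 65.1 and 56.8 FPKM under LPS in wild type. The groups did not overlap, although PBS replicate 2 came within 1 FPKM of LPS replicate 3, and the log2 difference was 1.09 with a 95% confidence interval from -2.60 to 4.79 (limma adjusted p = 0.587). The fit takes its spread from all 4 groups, and the knockout libraries of this gene differ widely. Pydc3 was at 1.92, 2.73 and 3.66 FPKM under PBS and at 3.91, 3.27 and 4.93 FPKM under LPS, with overlapping groups and a difference of 0.43 ± 0.47 (SE, limma adjusted p = 0.447).

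Aim2, the sensor of the AIM2 inflammasome, was at 3.20, 3.08 and 3.74 FPKM under PBS and at 3.01, 3.04 and 2.99 FPKM under LPS. All LPS libraries were below all PBS libraries, by a margin smaller than the spread among the PBS libraries. The log2 difference was -0.11, with a 95% confidence interval from -0.34 to 0.12 (limma adjusted p = 0.383), and it was 0.033 after median-of-ratios scaling. The interval thus does not reach the size of the change in any of the 6 members that rose.

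In all, 6 of 10 members were called higher and 0 lower in wild type, against 24.8% of tested genes called higher and 37.4% called lower. The median difference of the members was 1.51, against -0.11 over all tested genes. All LPS libraries lay above all PBS libraries in 8 members, against 27.2% of tested genes, and below them in 1, against 38.9%. Without wild-type PBS replicate 3 the same 6 members were called, with smaller differences, 2.36 in Ifi205, 1.52 in Mnda, 1.36 in Pydc4, 1.18 in Ifi204, 0.95 in Ifi203 and 0.87 in Pyhin1, and a median of 1.06. With median-of-ratios scaling all tested genes divided into 3326 higher and 2877 lower calls, and with upper-quartile scaling into 3130 and 3060, where the values as deposited gave 2443 and 3680. The members called higher were then 7 of 10 with each scaling. In the knockout the same counts were 2933 and 2421 with median-of-ratios scaling, 2623 and 2631 with the upper quartile, and 1958 and 3277 as deposited.

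The same question in the knockout gave 4 members higher, Ifi205, Mnda, Pyhin1 and Ifi203, and 0 lower, against 19.9% of tested genes called higher and 33.3% called lower. The median member difference was 0.86, against -0.12 over all tested genes. Ifi205 was at 7.32, 18.5 and 21.1 FPKM under PBS and at 91.2, 114 and 172 FPKM under LPS, with no overlap and LPS replicate 3 highest. Its log2 difference was 3.0 ± 0.69 (SE, limma adjusted p = 0.00379). Mnda was at 5.86, 10.4 and 16.3 FPKM under PBS and at 27.9, 26.6 and 49.0 FPKM under LPS, with the same library highest, a difference of 1.63 ± 0.46 (SE, limma adjusted p = 0.0118).

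Pyhin1 was at 40.1, 40.6 and 78.3 FPKM under PBS and at 93.6, 95.2 and 90.0 FPKM under LPS, a log2 difference of 0.87 ± 0.31 (SE, limma adjusted p = 0.0343). PBS replicate 3 approached the LPS libraries without reaching them. Ifi203 was at 21.6, 27.2 and 54.5 FPKM under PBS and at 48.4, 58.3 and 69.9 FPKM under LPS, so the groups overlapped, and its difference of 0.85 ± 0.33 (SE) was at a limma adjusted p of 0.0483. These calls depended on single libraries. Without knockout PBS replicate 1 only Ifi205 was called, and Ifi205 and Mnda were the members called higher without PBS replicate 2, LPS replicate 1 or LPS replicate 2.

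Of the members not called in the knockout, Ifi204 was at 32.9, 66.3 and 80.3 FPKM under PBS and at 117, 105 and 175 FPKM under LPS. Its groups did not overlap, and the log2 difference was 1.19 ± 0.53 (SE, limma adjusted p = 0.0782). It passed the threshold after median-of-ratios scaling (limma adjusted p = 0.0493) and in a fit of the 6 knockout libraries alone (1.19 ± 0.33, limma adjusted p = 0.0169). Pydc4 was at 2.88, 4.4 and 8.59 FPKM under PBS and at 6.47, 9.53 and 10.0 FPKM under LPS, with overlap and a difference of 0.70 ± 0.38 (SE, limma adjusted p = 0.136). Mndal was at 16.6, 28.7 and 50.0 FPKM under PBS and at 36.7, 40.9 and 52.5 FPKM under LPS, also with overlap, a difference of 0.56 ± 0.74 (SE, limma adjusted p = 0.551). In Pydc4, Mndal, Ifi203, Pyhin1 and Mnda alike, PBS replicate 3 was the highest PBS library of the knockout, and without it the members called higher were Ifi203, Ifi205, Mnda, Pydc4 and Pyhin1.

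Aim2 was at 3.26, 2.76 and 3.73 FPKM under PBS and at 2.43, 2.69 and 2.80 FPKM under LPS in the knockout, overlapping, with a log2 difference of -0.22 ± 0.10 (SE, limma adjusted p = 0.102). Without PBS replicate 2 the difference was -0.30 (limma adjusted p = 0.0428). Across the members, all LPS libraries of the knockout were above all PBS libraries in Ifi204, Ifi205, Mnda and Pyhin1, 4 of 10, against 24.6% of tested genes, and below them in 0, against 41.3%.

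**Figure D2:**
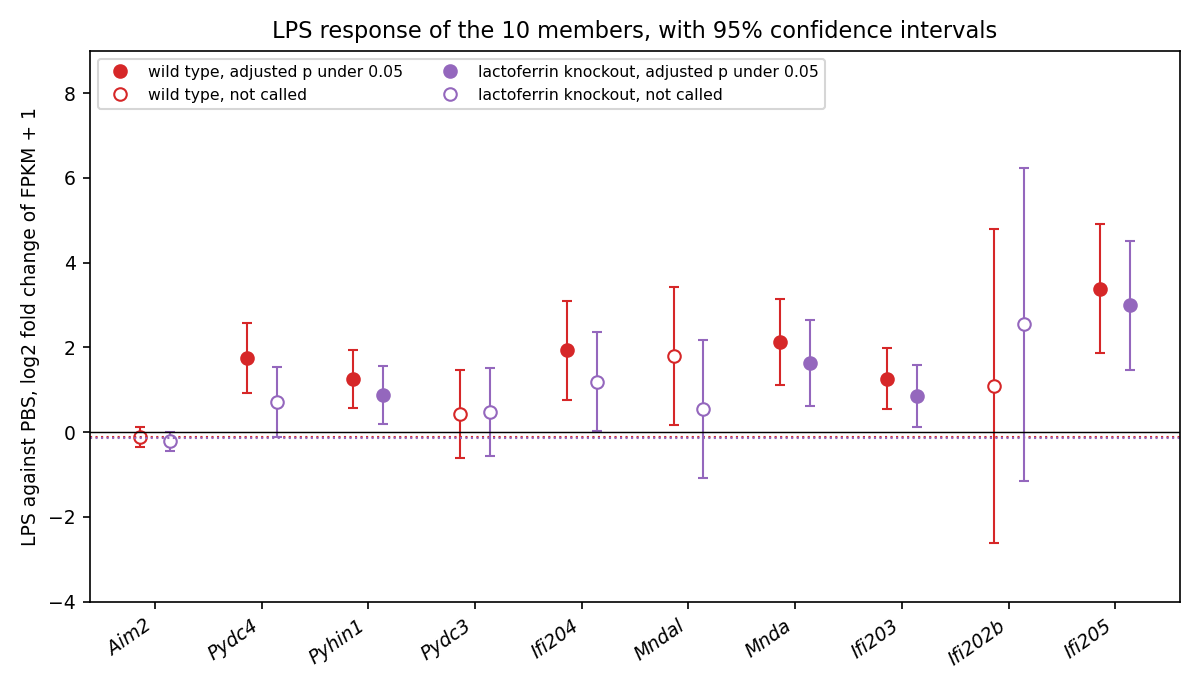
LPS against PBS as a log2 difference of FPKM + 1 for each member, in gene order, in wild type (red) and in the lactoferrin knockout (purple); points are limma estimates, whiskers 95% confidence intervals, filled points adjusted p under 0.05, dotted lines the median of all tested genes. Ifi205 and Mnda stand highest among the called members in both genotypes, at 3.39 and 2.13 in wild type, Aim2 lies near 0, and the intervals of Ifi202b are the widest.

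Ifi202b, the member without a pyrin domain, had the most uneven values. Wild-type libraries ranged from 13 to 69.5 FPKM. In the knockout it was at 23.2, 0.209 and 0.0478 FPKM under PBS and at 73.1, 77.3 and 0.0463 FPKM under LPS. Thus 9 libraries were at 13 FPKM or more, and knockout PBS replicates 2 and 3 and knockout LPS replicate 3 were at 0.209 FPKM or less, although all 12 are labelled as 1 strain. That strain is C57BL/6J, and Ifi202b is known to be low in C57BL/6 mice, so the 9 higher libraries are those that depart from the label. Every library near 0 was a knockout library. Whether the genetic background differed between libraries or between genotypes was not tested. The highest library was 486 times the lowest in the knockout under PBS and 1669 times under LPS, compared with 4.31 times and 1.22 times in wild type. On the log2(FPKM + 1) scale the range under PBS was larger in 0 of 9730 genes, and that under LPS in 4 of 9457 genes.

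Pydc3, with 4 members between it and Ifi202b along the cluster, was low in the same libraries. In the knockout it was at 2.92, 0.359 and 1.0 FPKM under PBS and at 3.59, 3.77 and 0.333 FPKM under LPS. Those 3 libraries were below every other library of the study, of which the lowest was at 1.92 FPKM. The contrast was smaller than in Ifi202b, 8.15 times under PBS and 11.3 times under LPS. The coding transcripts of the pair share no 50-base word.

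**Figure D3:**
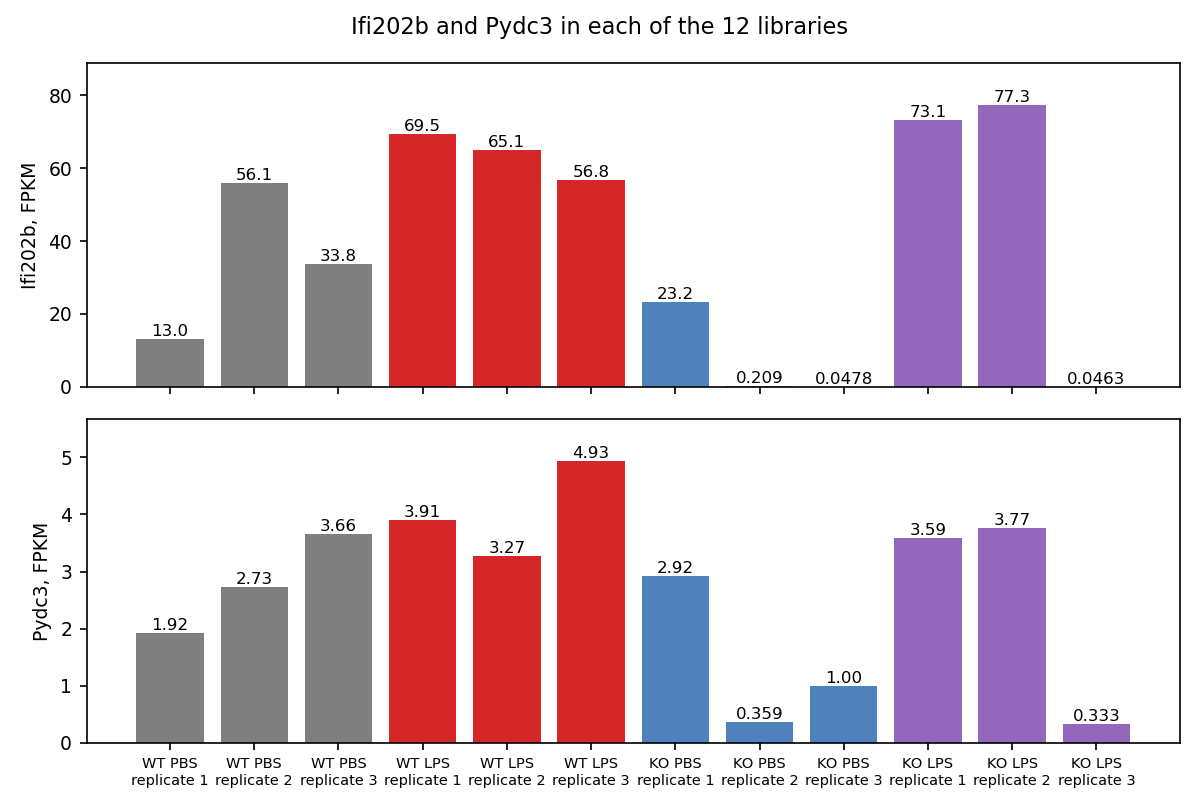
Level of Ifi202b (top) and Pydc3 (bottom) in FPKM in each of the 12 libraries, 1 bar a library, on linear axes from 0. Knockout PBS replicates 2 and 3 and knockout LPS replicate 3 are at 0.209 FPKM or less in Ifi202b and at 1.0 FPKM or less in Pydc3, and no other library is below 13 or 1.92 FPKM.

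With all libraries the LPS difference in the knockout was 2.54 ± 1.66 in Ifi202b (SE, limma adjusted p = 0.221) and 0.48 ± 0.47 in Pydc3 (SE, limma adjusted p = 0.409). Without knockout LPS replicate 3 it was 4.6 in Ifi202b (limma adjusted p = 0.00615) and 1.09 in Pydc3 (limma adjusted p = 0.0287), and Ifi205 and Mnda were the other members called. The remaining 8 members did not share this pattern. Knockout LPS replicate 3 was the highest of its group in 7 members, among them Ifi204 at 175 FPKM and Ifi205 at 172 FPKM, against 28.4% of all tested genes. Knockout PBS replicate 3 was the highest of its group in 8 members, against 25.5% of all tested genes. B cell markers summed to 966, 767 and 1056 FPKM in the knockout PBS libraries and to 299, 305 and 180 FPKM in the knockout LPS libraries, and macrophage markers to 14140 to 16650 FPKM and 7846 to 10360 FPKM. The B cell sum of LPS replicate 3 was the lowest of its group, and the part of cell composition in these values was not tested. Igsf8, a gene 1031 kb before Aim2 that was chosen after its values were seen, was highest in the 3 libraries with Ifi202b near 0. It was at 104, 92.8 and 96.5 FPKM in them, with 36.2 to 63.2 FPKM in the other 9. Fcer1a, the nearest tested gene before Aim2, did not set these libraries apart. It was at 24.8, 23.1 and 27.6 FPKM in them and at 28.3 FPKM in wild-type LPS replicate 2. How many tested genes set these 3 libraries apart was not counted. The genotype of the mice at the cluster was not analysed here.

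Between genotypes no member was called under PBS, 0 of 10, against 0.112% of tested genes, which is 11 of 9841. At an unadjusted p under 0.05 there were 2 members, Ifi204 and Pydc4, and 897 tested genes. All 10 members overlapped between the groups, where 6.04% of tested genes had every knockout library higher and 7.34% had every one lower. The log2 differences of knockout against wild type were 1.58 in Mndal (95% confidence interval -0.06 to 3.21), 1.19 in Ifi204 (0.03 to 2.35), 0.97 in Mnda (-0.05 to 1.98), 0.86 in Pydc4 (0.04 to 1.68) and 0.82 in Ifi205 (-0.70 to 2.34). Ifi202b was at -3.27 (-6.97 to 0.42) and Pydc3 at -0.75 (-1.79 to 0.28). The limma adjusted p of these 7 lay between 0.527 and 0.719.

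The genotype differences under PBS depended on single libraries. Their median was 0.68 with all libraries and 0.15 without wild-type PBS replicate 3, the library with the highest macrophage marker sum, and the difference became 0.46 in Mndal, 0.44 in Ifi204 and -0.21 in Ifi205. That of Ifi202b was -3.17 without it. The median was 0.33 without knockout PBS replicate 3, 0.98 without knockout PBS replicate 1 and 1.0 without wild-type PBS replicate 1. The part of the macrophage share in the members' levels was not tested. In such bulk samples fewer cells of a type and less RNA per cell cannot be told apart.

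**Figure D4:**
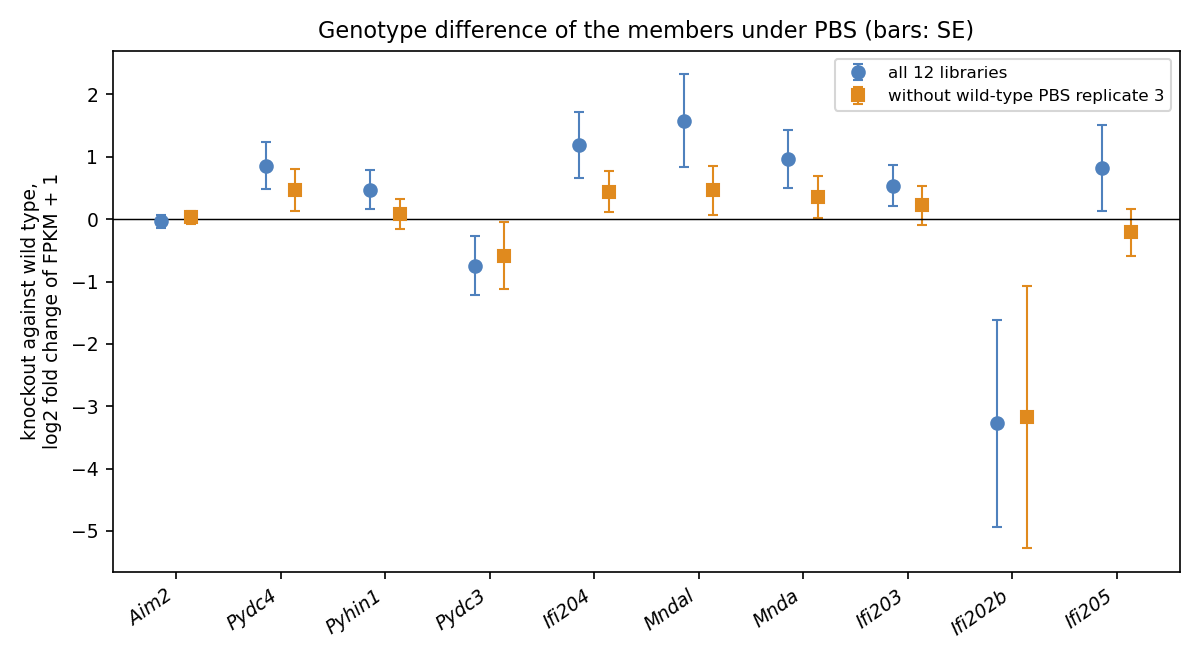
Knockout against wild type under PBS as a log2 difference of FPKM + 1 for each member, in gene order, with all 12 libraries (blue circles) and without wild-type PBS replicate 3 (orange squares); whiskers are the SE from limma. Mndal goes from 1.58 to 0.46 and Ifi205 from 0.82 to -0.21 when that library is left out, and Ifi202b stays near -3.

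Under LPS 0 of 10 members differed between genotypes by limma, against 0% of tested genes, and 744 tested genes but 0 members had an unadjusted p under 0.05. Mnda and Mndal were higher in every knockout library than in any wild-type library, 2 members against 5.03% of tested genes, with log2 differences of 0.46 (95% confidence interval -0.55 to 1.48) and 0.34 (-1.29 to 1.97). Aim2 was lower in every knockout library, 1 member against 10.4% of tested genes, with a difference of -0.14 (-0.37 to 0.09). Ifi202b was at -1.82 (-5.52 to 1.87) with all libraries and at 0.24 without knockout LPS replicate 3. The 4 comparisons share groups, so their values for a member are not independent of each other.

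The test of the difference itself, the response of the knockout minus the response of wild type, called 0 of 10 members, against 0.0406% of tested genes, 4 of 9841. No member and 946 tested genes had an unadjusted p under 0.05. The estimate was -1.23 in Mndal (95% confidence interval -3.54 to 1.07), -1.05 in Pydc4 (-2.22 to 0.11) and -0.74 in Ifi204 (-2.38 to 0.90). These intervals held a response of the knockout smaller by more than 1 on the log2 scale, and also a larger response. The same held for every other member but Aim2, for example Ifi205 (-2.54 to 1.76). In Aim2 the estimate was -0.11 (-0.43 to 0.22). The median was -0.40 with all libraries, -0.05 without wild-type PBS replicate 3, -0.10 without knockout PBS replicate 3 and -0.76 without knockout PBS replicate 1. limma without trend and robust settings also called 0 members in each of the genotype comparisons and the interaction, with 13, 0 and 7 genes called over all.

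Of 3 further rows taken as loci of the family, 2 were called higher with LPS in wild type, against 24.8% of tested genes. In the knockout AI607873 alone was called higher, against 19.9% of tested genes. AI607873, the current Ifi207, was at 25.7, 32.8 and 11.3 FPKM under PBS and at 71.5, 60.9 and 58.4 FPKM under LPS in wild type, a log2 difference of 1.53 ± 0.36 (SE, limma adjusted p = 0.00331). In the knockout its difference was 0.98 ± 0.36 (SE, limma adjusted p = 0.0386). LOC102639543, the current Ifi206, was at 11.2, 3.64 and 0.661 FPKM under PBS and at 23.6, 23.2 and 24.4 FPKM under LPS in wild type, a difference of 2.44 ± 0.57 (SE, limma adjusted p = 0.00301), and of 1.03 ± 0.57 in the knockout (limma adjusted p = 0.148). The promoter windows of both genes hold GAAATCGAAA, 41 and 40 bases before the start. Neither was low in the 3 libraries in which Ifi202b was near 0. BC094916, which had no match in the reference tables, was at 3.55, 1.35 and 0.526 FPKM under PBS and at 3.32, 3.63 and 3.44 FPKM under LPS in wild type, overlapping, a difference of 0.81 ± 0.38 (SE, limma adjusted p = 0.078). In the knockout its difference was -0.07 ± 0.38 (SE, limma adjusted p = 0.884).

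Of the 20 nearest tested genes, 10 on each side and up to 4156 kb away, 2 were called higher and 10 lower with LPS in wild type (median difference -0.42), against 24.8% and 37.4% of all tested genes, and 0 and 9 in the knockout (median -0.28), against 19.9% and 33.3%. These genes flank the cluster. The genes called higher were Fcer1a and Pigm, named after their values were seen. Fcer1a, which encodes the α chain of the high-affinity IgE receptor, lies 123.7 kb before Aim2 and was at 14.4, 8.13 and 2.07 FPKM under PBS and at 21.3, 28.3 and 20.8 FPKM under LPS in wild type. None of the 20 was called in a comparison of genotypes.

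Likeness between genes was measured as the Euclidean distance between centred log2(FPKM + 1) values over the 12 libraries, where a smaller distance is a closer pattern. Ifi203 and Pyhin1 were each other's nearest member at 0.55, and Ifi204 and Mnda at 0.82, a pair that shares 23.2% of the 50-base words of Ifi204. Outside the family, the 3 nearest genes were AI607873, Dtx2 and Rnf213 for Ifi203, and Slfn8, Rnf213 and Eif2ak2 for Pyhin1, at 0.66 to 0.82. Rnf213, AI607873 and Lacc1 were nearest to Pydc4, and Ptges, Slc7a2 and Mmp14 to Ifi204, at 0.99 to 1.22. Mnda had Mmp14, Slc7a2 and Ms4a6d as its nearest genes, at 1.14 to 1.26.

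For the other 5 members the distances to the nearest genes ranged more widely. The nearest genes to Mndal were Fcer1a, Ptges and Sod2, at 1.64 to 2.20, and to Ifi205 they were Sdc4, Car13 and Lcn2, at 2.21 to 2.39. Pydc3 had Gpr18, Gimap6 and Fam84b, at 1.33 to 1.5. Gpr18 was at 13.7, 20.6 and 15.8 FPKM in the libraries in which Pydc3 was low and at 18.8 to 39.4 FPKM in the others, so these overlapped. Aim2, whose level hardly varied, had Zfp788, Lysmd4 and Arid2, at 0.22 to 0.25. Ifi202b stood far from every gene tested. Its nearest was the member Pydc3 at 6.20, followed outside the family by Ccr7, Serpinb9 and Ccl7 at 6.75 to 6.80.

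Genes of the pathways in which the family acts were counted in lists, to be read beside the shares of all tested genes, 24.8% called higher and 37.4% called lower in wild type and 19.9% and 33.3% in the knockout. Of 10 partners and products of the AIM2 inflammasome, 2 were called higher and 3 lower with LPS in wild type (median difference -0.06), and 4 higher and 2 lower in the knockout (0.13), so the wild-type counts were near those shares. Pycard, the adaptor that AIM2 recruits, fell from 56.2 ± 2.59 to 27.0 ± 2.01 FPKM in wild type (SD, n = 3), a log2 difference of -1.03 ± 0.14 (SE, limma adjusted p = 9.2e-05), and by 1.05 in the knockout (limma adjusted p = 0.000124). Casp4, the mouse caspase-11 gene, rose from 39.4 ± 14.3 to 80.9 ± 6.83 FPKM, a difference of 1.08 ± 0.22 (limma adjusted p = 0.00149), and Il1a, an interleukin-1 gene, from 14.7 ± 6.82 to 150 ± 33.3 FPKM. Il1b, whose product the inflammasome matures, fell from 141 ± 38.1 to 79.5 ± 28.5 FPKM in wild type (-0.84 ± 0.32, limma adjusted p = 0.037) and rose from 65.3 ± 23.1 to 172 ± 47.4 FPKM in the knockout (1.40 ± 0.32, limma adjusted p = 0.00326). The test of that difference did not pass, at 2.24 ± 0.45 and a limma adjusted p of 0.124.

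Of 16 genes of cytosolic DNA sensing and its brakes, 7 were called higher and 5 lower in wild type (median 0.37), and 7 and 4 in the knockout (0.36). Zbp1, a sensor of Z-form nucleic acids, rose by 1.81 ± 0.24 and Trex1, the cytosolic DNA exonuclease, by 1.18 ± 0.13 in wild type (SE, limma adjusted p = 8.52e-05 and 2.47e-05). Tmem173, which encodes STING, fell by 0.98 on the log2 scale, from 21.2 ± 2.69 to 10.3 ± 1.90 FPKM (SD, n = 3, limma adjusted p = 0.000145). Ikbke, a kinase of interferon induction, rose from 24.2 ± 10.2 to 44.6 ± 4.04 FPKM (limma adjusted p = 0.0184).

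On the side of interferon, 1 of 9 interferon genes was high enough to be tested. Ifng rose from 0.873 ± 0.57 to 9.85 ± 2.80 FPKM in wild type (SD, n = 3), a log2 difference of 2.54 ± 0.35 (SE, limma adjusted p = 9.63e-05), and by 2.23 ± 0.35 in the knockout. Of 13 genes of interferon receptors and the ISGF3 complex, 5 were called higher and 3 lower in wild type (median 0.30), and 6 and 2 in the knockout (0.32). Irf7 rose by 1.86 ± 0.19, Irf1 by 1.67 ± 0.28 and Irf8 by 1.09 ± 0.23, all of them transcription factors of the interferon response, while the kinase gene Tyk2 fell by 1.09 on the log2 scale (limma adjusted p = 1.31e-05, 0.000337, 0.00183 and 4.3e-05).

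Of 20 interferon-induced genes outside the family, 18 were called higher and 0 lower in wild type, with a median difference of 1.73, and 17 and 0 in the knockout, with a median of 1.49. The members' own medians were 1.51 and 0.86. Gbp5, a guanylate-binding protein gene, rose by 2.75 ± 0.34, Oasl1 by 2.69 ± 0.33, Ifi44 by 2.67 ± 0.18 and Isg15, a ubiquitin-like modifier gene, by 2.45 ± 0.27 in wild type (SE, limma adjusted p from 1.03e-06 to 5.08e-05).

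Of 9 genes for transcription and cell cycle partners reported for p200 proteins, 8 were tested, of which 6 were called higher and 1 lower in wild type (median 0.73), and 4 and 2 in the knockout (0.71). Myc rose by 1.53 ± 0.20, Id3, an inhibitor of helix-loop-helix factors, by 1.24 ± 0.35, Trp53, which encodes p53, by 1.03 ± 0.16 and E2f1 by 0.87 ± 0.20 (SE, limma adjusted p = 7.37e-05, 0.00907, 0.000207 and 0.00299). None of the genes in these 6 lists was called in a comparison of genotypes or in the interaction.

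Marker genes of the cell types in the lavage also changed with LPS, beside the changes of the family. Of 11 macrophage markers 8 were called lower in each genotype, against 37.4% of tested genes in wild type and 33.3% in the knockout, and their sum ranged from 10330 to 23860 FPKM in wild type under PBS and from 6392 to 9631 FPKM under LPS. In the knockout it ranged from 14140 to 16650 FPKM and from 7846 to 10360 FPKM. Of 10 neutrophil markers 9 were called lower in wild type, with sums of 2162 to 3420 FPKM under PBS and 190 to 302 FPKM under LPS. In the knockout 4 of the 10 were called lower, a share near that of all tested genes, with sums of 1401 to 3249 FPKM and 744 to 2726 FPKM. Between genotypes under LPS 0 of the 10 neutrophil markers were called (median difference 2.0), and in the interaction also 0 (median 2.4).

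Sums of the other lists are given as ranges over the 3 libraries of wild type under PBS, wild type under LPS, knockout under PBS and knockout under LPS in turn. Monocyte markers summed to 323 to 826, 105 to 112, 395 to 532 and 127 to 282 FPKM. B cell markers summed to 620 to 1273, 291 to 416, 767 to 1056 and 180 to 305 FPKM, and T cell markers to 42.8 to 58.1, 19.0 to 21.4, 21.4 to 29.4 and 10.8 to 22.2 FPKM. Within wild type these 3 sums were lower in every LPS library than in any PBS library, and within the knockout those of monocyte and B cell markers were, while the T cell sums overlapped. Natural killer markers summed to 20.7 to 60.4, 54.0 to 72.4, 17.9 to 27.8 and 41.3 to 73.0 FPKM, which overlapped between treatments in wild type and were higher under LPS in the knockout. Mast cell markers summed to 478 to 882, 826 to 838, 686 to 1062 and 641 to 719 FPKM. Dendritic cell markers summed to 43.9 to 57.9, 24.3 to 28.4, 28.3 to 42.0 and 27.7 to 48.4 FPKM. Erythroid markers summed to 34.7 to 333, 8.36 to 2238, 9.54 to 47.1 and 5.81 to 1893 FPKM, the highest being single LPS libraries of each genotype. No marker of these 9 lists was at 0 in every library, and the part of cell composition in the members' LPS response was not tested.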

How the data were processed

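RNA of 12 libraries was sequenced, 3 in each of 4 groups, and groups and replicate numbers were taken from the labels. The authors deposited 1 table per library, whose unit is not stated. The deposited values were taken as FPKM, since they are not whole and Cufflinks is named. The submitters' processing notes name TopHat, Cufflinks, HTSeq, DESeq and GRCm38 without role or version. Read totals were not recovered: values below 0.2 FPKM put relative depth at 0.918 to 0.996 of wild-type PBS replicate 1, with at most 17.9% of genes within 2%. Of 21878 rows, 27 with symbols turned into dates were left out.

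The 9841 genes averaging 1 FPKM or more, all 10 members among them, were tested on log2(FPKM + 1), which understates changes of low genes, by limma 3.58.1 in R 4.3.3, with trend and robust settings, a mean per group, 8 residual degrees of freedom and Benjamini-Hochberg adjustment over all genes tested (threshold 0.05). The median SE was 0.141. The fit was tested on simulated data. All members were named, with up to 4 called genes per pathway list and the 3 genes nearest to each member in pattern. Members and lists were chosen with earlier results of these data known. The main fit used no pairing by replicate number, and whether same-numbered libraries are paired is not known. Alternatives were other pseudocounts, filters, scalings, a fit without trend or robust settings, a fit of 2 groups alone, a replicate block and leaving out each library. Gene positions and 50-base words came from GENCODE M21, and promoters from RefSeq. Figures were drawn with Python 3.11.15 and matplotlib 3.10.9.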

Additional observations from a re-analysis of the deposited data

How the results depend on the processing

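With LPS in wild type the members called higher numbered 6 to 7 when each library was left out in turn, and with LPS in the knockout 1 to 5, with 0 to 1 called lower. Without the level filter 2 members were called higher in the knockout. No alternative called a member in the comparisons of genotypes or the interaction. Signs that turned were all in differences that were not called. Aim2 with LPS in wild type was at 0.033 with median-of-ratios scaling. With each library left out in turn, the difference between genotypes under PBS ran from -0.12 to 0.051 in Aim2 and from -0.21 to 1.47 in Ifi205, and that under LPS from -2.87 to 0.24 in Ifi202b and from -0.0068 to 0.25 in Ifi203. The interaction ran from -1.18 to 0.013 in Ifi204, from -1.04 to 0.64 in Ifi205, from -0.85 to 0.10 in Mnda, from -0.64 to 0.0030 in Pyhin1 and from -0.30 to 0.66 in Pydc3. The positive ends of Ifi204, Ifi205, Mnda and Pyhin1 in the interaction were reached without wild-type PBS replicate 3, as was the negative end of Ifi205 under PBS. The cause was not tested, beyond there being fewer libraries. Whether replicate numbers pair the libraries is not known, since the titles use the same codes under PBS and LPS. Correlations of same-numbered deviations ran from -0.254 to 0.19, and those of differently numbered ones from -0.291 to 0.383. They cannot decide it, because deviations from means of 3 libraries are few and the ranges overlap. With the replicate number as a block, Mndal passed with LPS in wild type (limma adjusted p = 0.0324) and Ifi204 with LPS in the knockout (limma adjusted p = 0.0401). Exact permutation tests planned for members below the level filter were not run, since every member passed it, and protein features were not computed, since no protein table was used here. Read totals are not known, so low levels such as those of Aim2, Pydc3 and Pydc4 may rest on few reads.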
